A study of Mus musculus with 8 samples.

Results

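Of the 48500 genes in the expression table, 10 were followed here: the transcription factor genes Atf4 and Ddit3, which encodes CHOP, and 8 genes of the response to scarce amino acids. They were picked by symbol (Atf4, Ddit3, Nupr1, Trib3, Chac1, Asns, Aldh18a1, Slc3a2, Slc7a5 and Slc7a1), and each has 1 row in the table. RNA came from leukaemia stem cells in a mouse model of acute myeloid leukaemia with HOXA9 and MEIS1 as drivers, sorted from bone marrow as cells with GFP and c-Kit and without Gr-1, about 10000 cells a library. The 4 wild-type libraries (WT1 to WT4) came from Nynrin+/+ leukaemias and the 4 knockout libraries (KO1 to KO4, group Nynrin-KO) from Nynrin-/- leukaemias. Both groups carry the same oncogenic drivers. The labels used here give no treatment, age or sex and do not say which part of Nynrin was deleted. Nothing in the labels ties a library to its own mouse, so p-values refer to the spread among these 8 libraries, which may be technical in part.

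ATF4 is the main effector of the integrated stress response. When kinases such as GCN2 or PERK phosphorylate the initiation factor eIF2, general translation drops while the Atf4 mRNA, which carries upstream reading frames, is translated more. ATF4 protein is therefore set largely at translation, which RNA levels do not show. With C/EBP partners, ATF4 binds a composite element in genes for amino acid synthesis, amino acid import and feedback, and CHOP acts downstream in prolonged stress. In leukaemia the pathway is known for asparagine synthetase, since leukaemic cells low in this enzyme respond to asparaginase.

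The start regions of the members are shown first because the composite element, searched as TGATGNAA on both strands, was matched in the windows of some members and not of others. RefSeq windows on GRCm38.p6, the assembly also called mm10, run from 250 bases before to 50 bases after a start site, and 9 of the 10 members have one. The element was found in 4 of these 9 members (Asns, Nupr1, Chac1 and Trib3) and in 3.97% of all 32851 windows. A match is a description of letters and not a bound site. Sequence outside the windows was not searched, so a member without a match may hold the element elsewhere. The windows of Nupr1 and Slc3a2 lie inside the annotated gene, and its upstream end was not covered. Neither TGACGTCA, the cyclic AMP element, nor the ER stress element (CCAAT and, after 9 bases, CCACG) was found in a member window. They were found in 1.79% and 0.119% of all windows. The 2 members that rose in Nynrin-KO are shown with their whole window, 5′ to 3′ on the gene strand, in lower case with the match in capitals.
Asns, chr6:7693160-7693459, minus strand: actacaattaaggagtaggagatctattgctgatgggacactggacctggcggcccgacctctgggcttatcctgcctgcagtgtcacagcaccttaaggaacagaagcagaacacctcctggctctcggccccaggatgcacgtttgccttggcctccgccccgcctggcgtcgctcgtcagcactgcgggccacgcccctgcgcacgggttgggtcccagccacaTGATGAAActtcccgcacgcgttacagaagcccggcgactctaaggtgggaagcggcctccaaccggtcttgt
Nupr1, chr7:126625421-126625720, minus strand: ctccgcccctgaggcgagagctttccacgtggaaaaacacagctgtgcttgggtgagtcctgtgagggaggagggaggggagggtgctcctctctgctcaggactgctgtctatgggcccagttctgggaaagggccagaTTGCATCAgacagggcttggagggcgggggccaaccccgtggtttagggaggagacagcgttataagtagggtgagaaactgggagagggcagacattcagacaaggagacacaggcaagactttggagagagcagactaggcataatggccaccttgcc
For Chac1 and Trib3, the members with a match and very low RNA, 40 bases around the match are shown.
Chac1, chr2:119351033-119351072, plus strand: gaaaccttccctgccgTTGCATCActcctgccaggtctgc
Trib3, chr2:152344023-152344062, minus strand: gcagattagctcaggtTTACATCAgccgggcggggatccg
In Asns the match lies on the gene strand, at positions -23 to -16 from the start site. In the other three it lies on the opposite strand and is printed as its reverse complement. It begins at position -110 in Nupr1, at -193 in Chac1 and at 15 in Trib3.

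**Figure D1:**
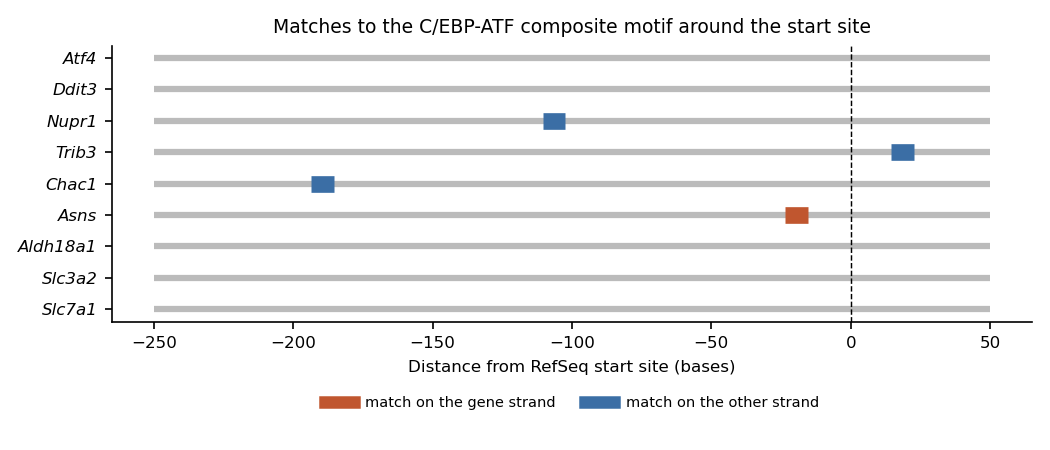
Position of each match to the composite motif (horizontal axis, bases from the RefSeq start site) in the window of each of 9 genes (grey bars; Slc7a1 has 2 windows, drawn as 1). Matches are drawn for Nupr1, Trib3, Chac1 and Asns, and the other 5 genes have none.

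The values are FPKM, reads scaled to the length of the longest annotated transcript and to the total of the library. Levels can be set side by side between genes only as far as that length holds for each. Recovered depth ran from 1.96 to 33.1 M reads in WT and from 1.83 to 28.7 M reads in Nynrin-KO, with WT3 and KO3 the shallowest. Nynrin itself stood at 0.008 to 0.286 FPKM in WT and 0.0982 to 0.437 FPKM in Nynrin-KO, too low in both to check the genotype labels. Kit, the gene of the sorted antigen c-Kit, was present in all libraries at 2.63 to 6.40 FPKM. The sort was against Gr-1, yet RNA of Ly6g, a gene for this antigen, was at 0.707 to 49.3 FPKM in WT and 93.5 to 264.4 FPKM in Nynrin-KO. Of 5 listed leukaemia stem cell genes, 2 fell and 2 rose by limma. Cd34 went from 86.4 to 6.26 FPKM on average (adjusted p = 0.000929) and Flt3 from 20.1 to 4.57 (0.0248), while Meis1 went from 0.816 to 3.69 (0.00466) and Hoxa9 from 1.06 to 3.52 (0.0397). Meis1 and Hoxa9 are the genes of the drivers named above. Meis1 was 0.664 to 0.898 FPKM in WT and 2.03 to 5.13 in Nynrin-KO. Hoxa9 was 0.569 to 1.90 and 1.70 to 6.38 FPKM, so its groups overlapped. The sources used here do not say whether these rows count RNA of the drivers. Kit was not called. The female-specific RNA Xist was 15.2 to 26.5 FPKM in WT, 12.7 in KO1 and at most 0.366 in KO2 to KO4. Ddx3y, a Y-linked gene, stayed at or below 0.111 FPKM in WT and was 2.18 in KO1 and 18.2 to 20.7 in KO2 to KO4. KO1 thus held both RNAs, for a reason that was not tested, and genotype cannot be told apart from sex. Summed levels of genes of other blood cells were without overlap between the groups for 4 of 5 lists, all but the monocyte and macrophage list. All 17 listed mature neutrophil genes reached 1 FPKM in a library, no listed marker was at 0 throughout, and their summed level was 3068 to 106028 FPKM in WT and 126764 to 286746 FPKM in Nynrin-KO. Of the other lists, the sums ran from 9.24 to 16.8 against 50.3 to 120.4 FPKM for 7 mast cell and basophil genes, 0.311 to 3.0 against 9.04 to 49.5 for 10 erythroid genes (7 of them at 1 FPKM in a library), 23.6 to 31.0 against 135.3 to 254.2 for 10 lymphoid genes (9 of them) and 1344 to 2573 against 1918 to 4302 for 18 monocyte and macrophage genes. In the lymphoid list the gap came mostly from Nkg7, at 0.578 to 9.14 FPKM over the WT libraries and 94.5 to 223.1 over the knockout libraries. Of the 4 lymphoid genes tested, 2 rose (Nkg7 and Cd79a) and none fell, while Cd79b overlapped between the groups. The largest part of the monocyte and macrophage sum was Ly6c2, at 948 to 2178 FPKM in WT and 1077 to 3193 in Nynrin-KO. By limma 9 of the 18 genes of this list were called higher, 9 were not called and 0 were called lower. Apoe was 2.51 to 9.27 FPKM in WT and 67.3 to 409.7 in Nynrin-KO, and C1qa 0.98 to 2.50 and 15.3 to 20.8. Cd68 and Adgre1 overlapped between the groups. The part of other blood cells in the results that follow was not tested. In bulk RNA a change in the make-up of the cells cannot be told apart from a change in RNA per cell.

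Asns and Nupr1 rose in Nynrin-KO and Aldh18a1 fell, while Atf4 RNA itself did not pass the test. With limma on log2(FPKM + 1) and a Benjamini-Hochberg adjusted p under 0.05 over 12524 genes, 8 of the 10 members were tested. Chac1 and Trib3 did not reach 1 FPKM in 4 libraries. Each of the 8 reached 1 FPKM in at least 3 libraries of each group. Of these 8, 2 were higher in Nynrin-KO and 1 was lower, where 14.0% of all genes tested were higher, 13.8% lower and 27.9% changed in either direction. The groups did not overlap for 2 members with Nynrin-KO above WT (Asns and Nupr1) and 2 with Nynrin-KO below WT (Aldh18a1 and Slc3a2), against 16.7% and 15.0% of all genes tested. The median log2 change of the 8 was -0.30, and that of all genes tested was -0.03. The median of the 8 was -0.18 without WT1, -0.14 under quantile normalization and -0.13 after rescaling on all genes but the neutrophil list and Gm10800. That rescaling moved the median of all genes to 0.13 and the calls over all genes from 1754 higher and 1734 lower to 2468 higher and 1277 lower. The called members moved in both directions, and so few calls among 8 genes, read against these shares, are no result about the group as a whole.

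**Figure D2:**
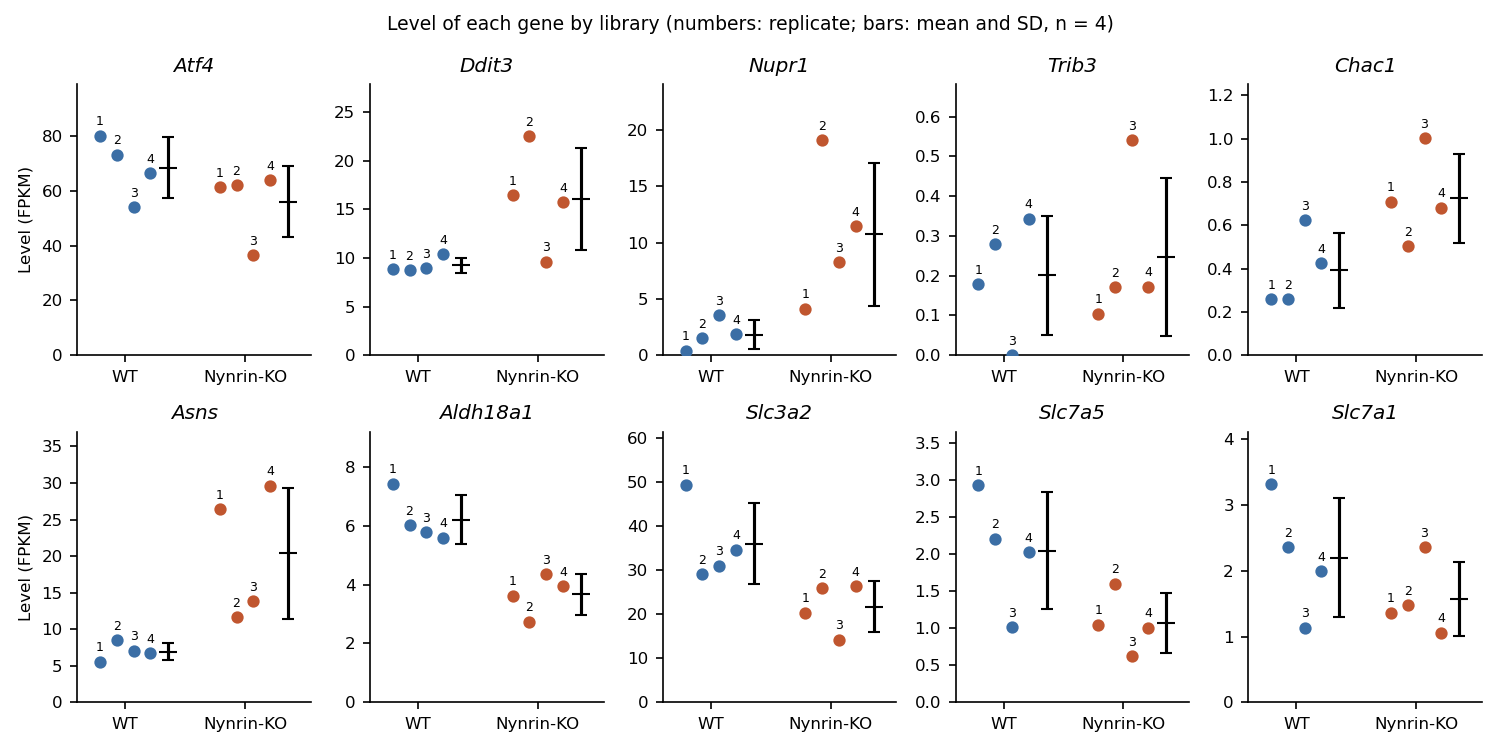
Level of each of the 10 genes (vertical axis, FPKM, each panel on its own scale from 0) in the 4 WT libraries (blue) and the 4 Nynrin-KO libraries (orange), numbered by replicate, with the mean and SD (n = 4) at the side. Asns and Nupr1 lie higher in every Nynrin-KO library than in any WT library, and Aldh18a1 and Slc3a2 lie lower.

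Atf4 (ENSMUSG00000042406, chromosome 15, 80255184 to 80257541), the transcription factor at the head of the response, had the highest level of the members. It stood at 80.3, 73.3, 54.0 and 66.4 FPKM in WT1 to WT4 and at 61.4, 62.0, 36.6 and 64.0 FPKM in KO1 to KO4. The groups overlapped, with KO3 alone below all WT libraries. The means were 68.5 ± 11.2 and 56.0 ± 13.0 FPKM (SD, n = 4 each), and the log2 change was -0.30 (SE 0.23, limma adjusted p = 0.365). The direction turned under quantile normalization (log2 change 0.046), so no direction is given for Atf4 RNA. The genes with the most similar pattern, by Pearson correlation of log2(FPKM + 1) over the 8 libraries among 5185 genes, were Srrm1, Mcts1 and Pcbp2 (r = 0.98 each), which share library depth and scaling with Atf4.

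Ddit3 (ENSMUSG00000025408, chromosome 10, 127290774 to 127296288) encodes CHOP, a bZIP protein that pairs with C/EBP factors. WT1 to WT4 held 8.83, 8.75, 8.94 and 10.4 FPKM of it. KO1 to KO4 held 16.4, 22.5, 9.60 and 15.7 FPKM. The WT libraries were close together, 3 Nynrin-KO libraries stood above all of them, and KO3 fell within the WT range. That value rests on 17 reads, with an exact 95% Poisson interval of 5.59 to 15.4 FPKM for counting error alone. The means were 9.23 ± 0.793 and 16.1 ± 5.28 FPKM, a log2 change of 0.69 (SE 0.24) that narrowly missed the threshold (limma adjusted p = 0.0584). It passed without KO3 (log2 change 0.90, adjusted p = 0.00937) and with voom on recovered reads (0.84, 0.0107), and over all alternatives the adjusted p of Ddit3 ran from 0.0084 to 0.469. Ddit3 exons share 68 bases with Mars1, a tRNA synthetase gene on the opposite strand, and 13 with Gm4189, also on the opposite strand. The sources used here do not say whether reads were counted by strand. A further annotated gene of the same name, on the same strand, shares 105 bases (6.13% of the exons of Ddit3) and is not in the expression table. Its closest patterns were those of Sh2d3c, Sbno2 and Tagap (r = 0.99, 0.98 and 0.98 over 8 libraries).

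The ratio of Ddit3 to Atf4 within a library does not depend on how that library is scaled, apart from the pseudocount. As plain FPKM it was 0.110, 0.119, 0.166 and 0.157 in WT1 to WT4 and 0.268, 0.363, 0.262 and 0.245 in KO1 to KO4. Every Nynrin-KO library stood above every WT library, KO3 included. The log2 ratio differed by 0.99 (-2.75 ± 0.28 against -1.76 ± 0.23, SD, n = 4 each). The exact two-sided permutation p was 0.0286, the smallest that 4 against 4 libraries can give. Benjamini-Hochberg adjustment over the 3 ratios tested gave 0.0857. The ratio did not pass after adjustment, which with 4 against 4 libraries no ratio can do alone. A ratio does not tell which of its RNAs moved.

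Nupr1 (ENSMUSG00000030717, chromosome 7, 126623249 to 126630861), a small stress-induced chromatin protein, had the highest fold change of the members. WT1 to WT4 held 0.395, 1.5, 3.54 and 1.87 FPKM of it. KO1 to KO4 held 4.13, 19.1, 8.27 and 11.5 FPKM. The groups did not overlap, but the lowest Nynrin-KO library, KO1, lay close to the highest WT library, WT3, whose value rests on 17 reads. The means were 1.83 ± 1.30 and 10.7 ± 6.33 FPKM, a ratio of 5.88 and a log2 change of 2.01 on the log2(FPKM + 1) scale (SE 0.46, limma adjusted p = 0.0129). Of all genes tested, 1.95% had a log2 change at least as high. The rise was smaller and did not pass within the 5 libraries with at least 10000 FPKM of the satellite-like gene model Gm10800 (WT2, WT3, WT4, KO1 and KO3, log2 change 1.11, adjusted p = 0.137, range over alternatives 0.0033 to 0.32). Its levels are per 2449 bases, the longest annotated transcript, while the longest coding transcript has 829, so they may understate the coding RNA by up to 2.95-fold. The factor is the same in all libraries only if they hold the same mix of Nupr1 transcripts, which was not tested.

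Trib3 (ENSMUSG00000032715, chromosome 2, 152337422 to 152344032), a pseudokinase that feeds back on ATF4, was near the detection limit throughout. It ranged from 0 to 0.344 FPKM in WT and from 0.104 to 0.540 FPKM in Nynrin-KO, from 0 to 12 reads a library. The groups overlapped (log2 difference 0.051, exact permutation p = 0.771), and no difference was detectable at this depth. Where it was listed at 0, in WT3, the level that 3 reads give was 0.755 FPKM, above every value measured.

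Asns (ENSMUSG00000029752, chromosome 6, 7675169 to 7693254) encodes asparagine synthetase, which makes asparagine from aspartate and glutamine. WT1 to WT4 held 5.55, 8.48, 7.08 and 6.73 FPKM of it. KO1 to KO4 held 26.4, 11.7, 13.8 and 29.6 FPKM. KO1 and KO4 were far above the rest, KO2 and KO3 lay between them and WT, and the groups did not overlap. The means were 6.96 ± 1.21 and 20.4 ± 8.96 FPKM, a ratio of 2.93 and a log2 change of 1.34 (SE 0.30, limma adjusted p = 0.0119). Of all genes tested, 5.11% had a log2 change at least as high. The call held without any single library and ended without WT1 and KO1 together (log2 change 1.09, adjusted p = 0.0765) and within the 5 libraries high in Gm10800 (1.26, 0.0603). Over all alternatives the log2 change of Asns stayed between 0.93 and 1.56 and its adjusted p ran from 0.00223 to 0.337.

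Aldh18a1 (ENSMUSG00000025007, chromosome 19, 40550257 to 40588463) encodes P5C synthase, the first enzyme of proline synthesis from glutamate. It stood at 7.42, 6.01, 5.78 and 5.59 FPKM in WT1 to WT4 and at 3.62, 2.74, 4.35 and 3.95 FPKM in KO1 to KO4. All Nynrin-KO libraries lay below all WT libraries. The means were 6.20 ± 0.831 and 3.66 ± 0.683 FPKM, and Aldh18a1 fell by 0.63 on the log2 scale (SE 0.17, limma adjusted p = 0.0225). Falls of this size or larger were common, at 21.7% of all genes tested. The adjusted p was 0.0649 without WT1, 0.0529 without WT2, 0.0518 without KO1 and 0.0601 without KO2, and 0.0731 (log2 change -0.46) with libraries rescaled on all genes but the neutrophil list and Gm10800, and it ran from 0.00866 to 0.439 over all alternatives.

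Chac1 (ENSMUSG00000027313, chromosome 2, 119351229 to 119354381), an enzyme that degrades glutathione and a sensitive marker of ATF4 activity, was low in every library. The 14, 3, 2 and 12 reads in WT1 to WT4 gave 0.259, 0.259, 0.623 and 0.425 FPKM. The 11, 19, 3 and 32 reads in KO1 to KO4 gave 0.709, 0.503, 1.0 and 0.681 FPKM. Of the Nynrin-KO libraries, 3 lay above all WT libraries and KO2 did not. The log2 difference was 0.31 (exact two-sided permutation p = 0.0571, unadjusted), short of the threshold.

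The plot of log2 changes under 4 settings sets the tested members side by side. Nupr1 and Asns were higher in Nynrin-KO in each setting drawn and were called in all but the 5 libraries high in Gm10800, while the calls among the lower genes changed from setting to setting.

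**Figure D3:**
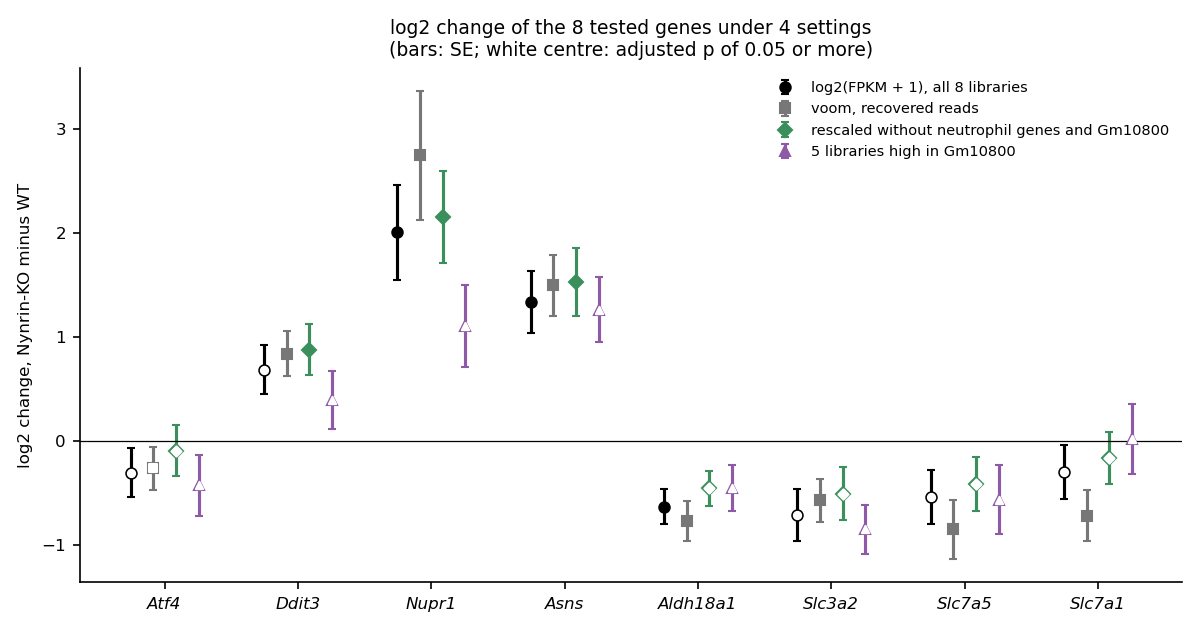
log2 change of the 8 tested genes (vertical axis, Nynrin-KO minus WT, bars SE) with limma on log2(FPKM + 1), with voom on recovered reads, after rescaling without neutrophil genes and Gm10800, and within the 5 libraries high in Gm10800. A white centre marks an adjusted p of 0.05 or more. Nupr1 runs from 1.11 to 2.75 and Asns from 1.26 to 1.53 over these settings.

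The amino acid transporters were lower on average in Nynrin-KO, and none passed the test. Slc3a2 (ENSMUSG00000010095, chromosome 19, 8706882 to 8723369) encodes 4F2hc, the heavy chain that several light chains need to reach the cell surface. It was 49.4, 29.0, 31.0 and 34.6 FPKM in WT1 to WT4 and 20.3, 26.0, 14.2 and 26.4 FPKM in KO1 to KO4. The groups did not overlap, yet KO2 and KO4 lay close to WT2 and the log2 change of -0.71 (SE 0.25) missed the threshold (limma adjusted p = 0.0637). It passed under 3 alternatives, among them voom on recovered reads (-0.57, adjusted p = 0.048), with a range of 0.00164 to 0.69 over all of them.

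Slc7a5 (ENSMUSG00000040010, chromosome 8, 121881150 to 121907694) encodes LAT1, the light chain that carries leucine and other large neutral amino acids. It was 2.93, 2.21, 1.01 and 2.03 FPKM in WT1 to WT4 and 1.05, 1.60, 0.623 and 1.01 FPKM in KO1 to KO4. WT3 lay at the level of the Nynrin-KO libraries, so the groups overlapped, and WT3 and KO3 rest on 7 and 4 reads. The log2 change was -0.54 (SE 0.26, limma adjusted p = 0.157). It was -0.85 both with voom on recovered reads (adjusted p = 0.0339) and with a pseudocount of 0.1 (adjusted p = 0.165), and the adjusted p ran from 0.0262 to 0.801 over all alternatives. Its closest patterns were those of Sin3b, Apobec3 and Pycard (r = 0.98, 0.98 and 0.97 over 8 libraries).

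Slc7a1 (ENSMUSG00000041313, chromosome 5, 148327410 to 148399904) encodes CAT1, a carrier of arginine and lysine. It was 3.31, 2.36, 1.14 and 2.0 FPKM in WT1 to WT4 and 1.37, 1.48, 2.36 and 1.06 FPKM in KO1 to KO4. The groups overlapped (log2 change -0.30, SE 0.26, limma adjusted p = 0.428), and within the 5 libraries high in Gm10800 the value was 0.021. With voom it passed at a log2 change of -0.72 (adjusted p = 0.0379, range over alternatives 0.0379 to 0.976).

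No difference between the groups was detected in the proportions of the transporters, which 4 libraries each leave loosely measured. The ratio of Slc3a2 to Slc7a5, heavy to light chain, was 16.9, 13.1, 30.5 and 17.1 in WT1 to WT4 and 19.4, 16.2, 22.8 and 26.1 in KO1 to KO4, as plain FPKM. On the log2(FPKM + 1) scale the ratio differed by -0.18 (exact permutation p = 0.4, adjusted 0.571), and with a pseudocount of 0.1 by 0.11, so its sign depends on the pseudocount. The ratio of Slc7a1 to Slc7a5 lay between 0.923 and 1.30 in all libraries but KO3, where it was 3.80 from 31 and 4 reads (difference of log2 ratios 0.24, exact permutation p = 0.571, adjusted 0.571).

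By mean level in WT the members ran from Atf4 and Slc3a2 through Ddit3, Asns and Aldh18a1 to Slc7a1, Slc7a5, Nupr1, Chac1 and Trib3. From Asns on, all neighbours in this order overlapped over the WT libraries but Aldh18a1 and Slc7a1. In Nynrin-KO the order was Atf4, Slc3a2, Asns, Ddit3, Nupr1, Aldh18a1, Slc7a1, Slc7a5, Chac1 and Trib3. There all neighbours overlapped but Atf4 and Slc3a2, and Aldh18a1 and Slc7a1. The place of Nupr1 in both orders depends on the transcript length used, which may understate its coding RNA by up to 2.95-fold.

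Genes that control eIF2, upstream of ATF4, changed in both directions. Of 10 measured genes, 3 rose (30%) and 2 fell (20%), where 14.0% of all genes tested rose and 13.8% fell. The kinase gene Eif2ak2, which encodes PKR, rose by 1.69 on the log2 scale (3.56 to 14.1 FPKM, limma adjusted p = 0.0109), and Eif2ak3, which encodes PERK, rose by 0.73 (1.85 to 3.74 FPKM, 0.00857). The phosphatase subunit gene Ppp1r15b rose by 0.88. Eif2s1, the eIF2 alpha subunit that the kinases phosphorylate, fell by 1.41 (61.9 to 22.1 FPKM, adjusted p = 0.00355), and Eif2b5, a subunit of the exchange factor that reloads eIF2, fell from 17.8 to 8.08 FPKM (adjusted p = 0.0184). Gcn1, which activates GCN2, and the kinase gene Eif2ak1 had log2 changes of -0.35 and -0.22 and did not pass. These 5 calls kept their direction and passed under each of the 3 rescalings run. Without WT1 and KO1, 2 rose and 1 fell, and within the 5 libraries high in Gm10800 none rose and 2 fell.

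Among bZIP factors that can pair with ATF4 or CHOP or act beside them, 3 of 8 tested rose and none fell. The share that rose was 37.5%, against 14.0% of all genes tested. Atf3, itself a known ATF4 target, went from 18.7 to 58.4 FPKM (log2 change 1.57, limma adjusted p = 0.0248), with KO1 at 25.1 FPKM inside the WT range of 11.2 to 31.3 FPKM. Nfe2l2, the NRF2 gene, rose by 0.82. Cebpe, a factor of late granulocyte maturation, rose by 2.17 on the log2 scale (12.7 to 54.9 FPKM, adjusted p = 0.0178). The summed mature neutrophil genes were higher in every Nynrin-KO library than in any WT library. That goes for every gene that rose, and their part in the rise of Cebpe was not tested. Cebpg and Batf had log2 changes of 0.33 and 0.50 and did not pass. The count was 1 without WT1, WT2, KO2 or KO4, and none of the 8 passed within the 5 libraries high in Gm10800.

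Of 27 other known ATF4 targets measured, 16 were tested, 3 of them fell (18.8%, near the 13.8% of all genes tested) and none rose. The count leaves out genes held in other lists, such as Atf3, which rose, and serine and proline enzymes, several of which fell. It therefore does not describe ATF4 targets as a whole. The median log2 change of the 16 was -0.20, -0.12 without WT1 and -0.015 after rescaling without neutrophil genes and Gm10800. Without WT1 and KO1, 1 of the 16 fell. The 3 that fell were aminoacyl-tRNA synthetase genes, Gars (log2 change -1.18, limma adjusted p = 0.00561), Mars1 (-1.13, 0.00827) and Iars (-0.87, 0.0195). Nars and the ER oxidase gene Ero1l had log2 changes of -0.46 and -0.75 and did not pass. Of the serine enzymes, 3 of 5 tested fell (60%, against 13.8% of all genes tested) and none rose. Phgdh, the first enzyme of serine synthesis, fell by 2.84 on the log2 scale (80.9 to 9.35 FPKM, adjusted p = 0.00204), Psat1 by 2.38 (63.5 to 10.6 FPKM, 0.00195) and Shmt2 by 2.32 (42.7 to 6.97 FPKM, 0.0025). WT1 held the highest Phgdh level, 161 FPKM, and 3 genes of the list also fell without WT1 and KO1. Mthfd2 and Psph, at log2 changes of -0.46 and -0.10, did not pass.

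Enzymes beside Aldh18a1 in proline and glutamine metabolism also fell. Of 12 tested, 5 fell (41.7%, against 13.8% of all genes tested) and none rose, and the median log2 change was -0.52. Pycr1 and Pycrl, which make proline from the product of P5C synthase, fell by 1.1 and 0.68 on the log2 scale (limma adjusted p = 0.0318 and 0.0218). The transaminase genes Got1 and Got2 fell by 1.14 and 1.37, and Oat, the ornithine aminotransferase, by 0.81. Glul, the glutamine synthetase gene, had a log2 change of 0.63 and did not pass. The count was 3 without WT1, WT3 or WT4 and 2 without KO1, KO2 or the pair WT1 and KO1, and after rescaling without neutrophil genes and Gm10800 3 fell and 1 rose.

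Of 8 tested amino acid transporters outside the members, 1 fell (12.5%, near the 13.8% of all genes tested) and none rose. The one that fell, Slc7a6, a light chain partner of Slc3a2, had a log2 change of -0.89 (limma adjusted p = 0.00807). Slc38a1 and Slc7a8 had log2 changes of -0.66 and 0.70 and did not pass. With voom on recovered reads 3 rose and 2 fell. Of 17 tested genes by which mTORC1 senses amino acids, 3 rose (17.6%, near the 14.0% of all genes tested) and none fell. These were the Rag GTPase genes Rraga (log2 change 1.40, adjusted p = 0.0169) and Rragc (0.60, 0.0442) and Fnip1 (0.80, 0.0383). Lamtor1 and Sesn1 had log2 changes of -0.41 and -0.43 and did not pass. Under quantile normalization 1 of the 17 rose, as without any 1 of WT1, WT2, WT4, KO1, KO2 and KO4.

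Of 4 tested relatives of the members, 1 rose (25%, against 14.0% of all genes tested). Trib1, a pseudokinase that promotes degradation of C/EBP alpha, was 1.35, 2.64, 3.30 and 5.75 FPKM in WT1 to WT4 and 20.4, 14.6, 9.23 and 13.8 FPKM in KO1 to KO4. It rose by 1.92 on the log2 scale (limma adjusted p = 0.00449). Chac2 and Ggct, further enzymes of glutathione breakdown, had log2 changes of 0.42 and 0.28 and did not pass. Of 14 genes of the other arms of the unfolded protein response, 4 fell (28.6%, against 13.8% of all genes tested) and none rose. The chaperone gene Hsp90b1 fell by 1.32, Pdia4 by 0.89, Hspa5, which encodes BiP, by 0.82 and Ern1, which encodes the sensor IRE1, by 0.76. Dnajb9 and Sdf2l1 had log2 changes of 0.62 and -1.07 and did not pass. Hspa5 was at a log2 change of -0.17 under quantile normalization (adjusted p = 0.488), and the count of 4 was 2 with WT2, KO1 or KO2 left out and 1 without WT1 and KO1 together. Under quantile normalization 3 fell and 2 rose, and after rescaling without neutrophil genes and Gm10800 2 fell and 1 rose.

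**Figure D4:**
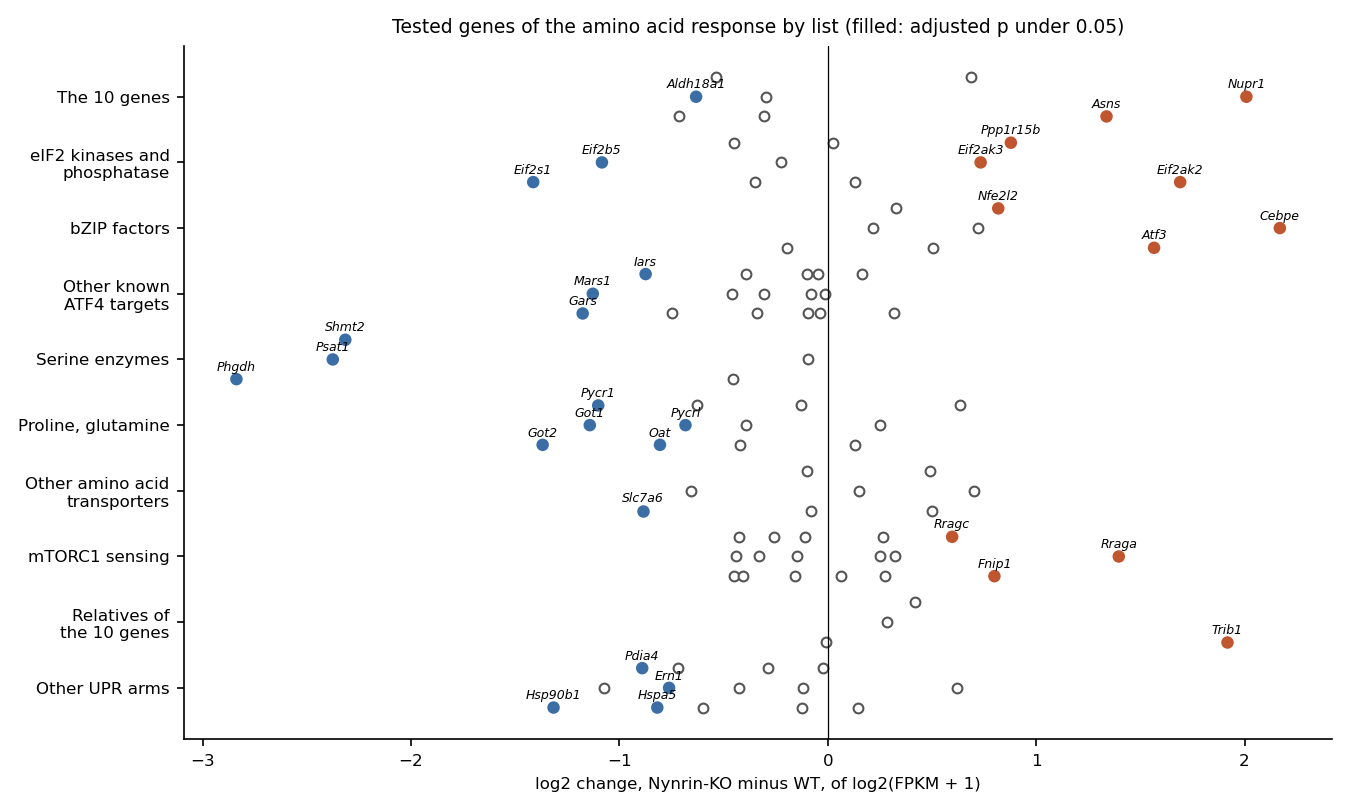
log2 change (horizontal axis, Nynrin-KO minus WT) of each tested gene in the 10 lists, 1 point a gene, filled and named where limma's adjusted p was under 0.05 (orange higher, blue lower). Serine enzymes hold the lowest values, down to -2.84 for Phgdh, while Nupr1, Asns and 3 of the 8 bZIP factors are filled on the right.

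The levels of the members were also set beside the mature neutrophil genes of the same library. The mean log2(FPKM + 1) of those 17 genes ran from 4.35 to 8.46 in WT and from 9.37 to 10.5 in Nynrin-KO. Over the WT libraries, in which this mean moved most, Asns lay between 5.55 and 8.48 FPKM, and Nupr1 was 0.395 FPKM in WT1, where the mean was lowest, and 1.5 to 3.54 FPKM in WT2 to WT4. WT1 was lowest in Asns too, but WT4, with the highest WT mean, held less Asns than WT2 and WT3. Within Nynrin-KO, KO1 and KO4 had the highest neutrophil means (10.5 and 9.68) and the highest Asns levels (26.4 and 29.6 FPKM). KO2 and KO3, with means of 9.37 and 9.39, held 11.7 and 13.8 FPKM of Asns. Nupr1 went the other way at the ends, lowest in KO1 and highest in KO2. The groups do not overlap in this mean, and with it as a covariate neither Asns (log2 change 0.93, limma adjusted p = 0.337) nor Nupr1 (1.53, 0.32) passed, and 5 genes in all did.

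**Figure D5:**
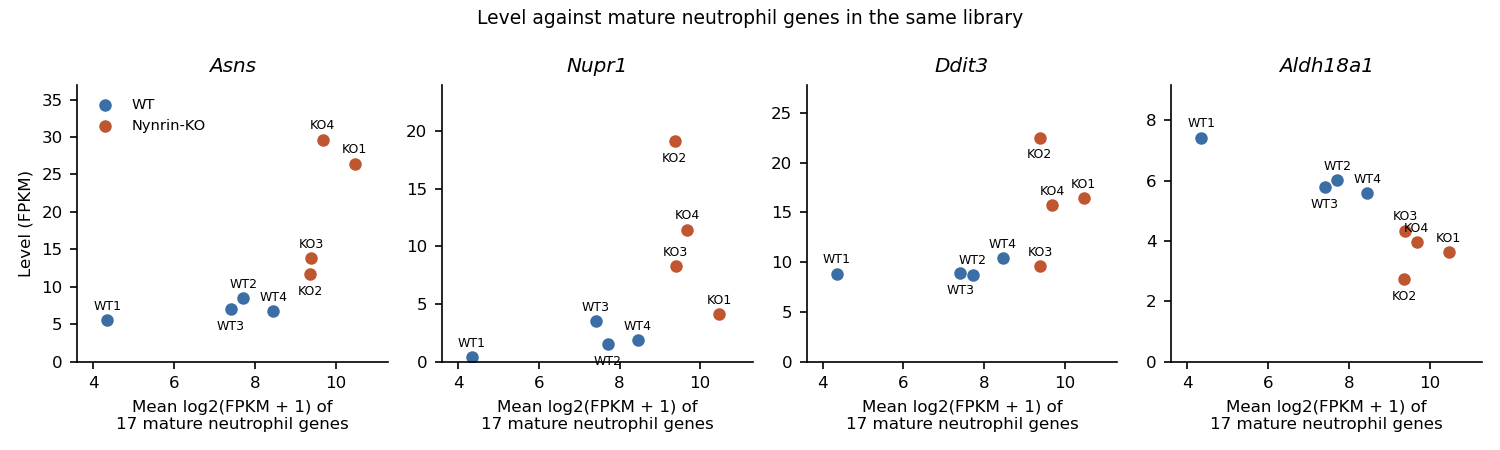
Level of Asns, Nupr1, Ddit3 and Aldh18a1 (vertical axes, FPKM) against the mean log2(FPKM + 1) of 17 mature neutrophil genes in the same library (horizontal axis), WT in blue and Nynrin-KO in orange. WT1 sits far to the left at 4.35, and all Nynrin-KO libraries lie at 9.37 or more, so the groups do not overlap on this axis.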

How the data were processed

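The authors deposited 1 table of 48500 genes with a value for each of 8 libraries (4 WT, 4 Nynrin-KO, groups and replicate numbers from the sample titles), made with the Smart-Seq V4 kit per the labels' protocols. The header names no unit. The deposited values were read as FPKM, since multiplying by the longest GENCODE M21 transcript and 1 step per library gave whole reads for 99.46% to 99.56% of values under 100 reads (tolerance 0.1 read). Per the submitters' processing notes, the build was mm10 and the tools were Bowtie 0.12.9, Cufflinks 2.1.1 and HTSeq. Sources used here do not give the counting rule or use of strand. Of the gene IDs 99.5% matched GENCODE M21, the source of coordinates.

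The filter kept genes that reached 1 FPKM in 4 or more of the 8 libraries. The test was that of limma 3.58.1 under R 4.3.3, with log2(FPKM + 1) as input (trend, robust, two-sided, Benjamini-Hochberg over all genes tested). This scale understates changes of low genes. The code was tested on simulated data first. Members outside the filter and 3 ratios had exact two-sided permutation tests over 70 arrangements. Intervals and floors of 3 reads cover counting error only. Named genes are the 10 members and, per list, up to 5 called genes and 2 others with the smallest p; 1 of these is not reported here. Correlation partners had a mean of at least 5 FPKM. Gdf15 was named after its values were seen. Members, lists and most alternatives were chosen with earlier results of these data known. Python 3.11.15 made the exact tests and figures.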

Additional observations from a re-analysis of the deposited data

Results flagged for a closer look

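In 26 groups of 4 libraries (10 members and 3 ratios in each genotype), the highest or lowest library was compared with the others on the log2 scale, and 2 stood apart by Dixon's criterion. Chance flags about 1 in 20 groups. Atf4 was lowest in KO3, at 36.6 FPKM from 135 reads, against 61.4 to 64.0 FPKM in the other Nynrin-KO libraries. KO3 is also the shallowest library, with 1.83 M reads, and the part of depth was not tested. Ddit3 in WT was highest in WT4, at 10.4 FPKM from 174 reads, against 8.75 to 8.94 FPKM in the other WT libraries, a small gap beside 3 libraries that lie close together.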

How the results depend on the processing

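The comparison gave 1 member lower, 2 members higher and 3488 genes changed. No single library left out ended the calls of Asns and Nupr1. Leaving out each library in turn gave 0 to 1 members lower, 2 to 3 higher and 2472 to 3715 genes changed. Without WT1 and KO1 the counts were 0 lower, 1 higher and 1819 genes, and within the 5 libraries high in Gm10800 they were 0, 0 and 994. With the neutrophil mean as a covariate they were 0, 0 and 5, and at an adjusted p under 0.01 they were 0, 0 and 1454. With no filter 0 members were lower and 1698 of 48500 genes changed. Members lower were 2 under quantile normalization, 4 with voom, 3 with Gm10800 as a covariate and 0 after rescaling without neutrophil genes and Gm10800. That rescaling and the fit without WT3 and KO3 were chosen after seeing the data.

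With the replicate number as a block 0 members were lower, 2 higher and 2838 genes changed, and Aldh18a1 had an adjusted p of 0.0554. Deviations of libraries with the same number correlated at -0.21, -0.39, 0.33 and 0.008. The best correlation of each WT library with a knockout library of another number was 0.53, 0.27, 0.08 and 0.11. Only number 3 was most like its own number. Pairing by number was thus not shown, and so few pairs cannot exclude it.

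Directions turned for Atf4 under quantile normalization (0.046), for Slc7a1 within the 5 libraries (0.021) and with the neutrophil covariate (0.13), and for Trib3 without WT3 (-0.034) or KO3 (-0.055). The log2 ratio of Slc3a2 to Slc7a5 was 0.11 at a pseudocount of 0.1 and -0.31 to -0.05 with single libraries left out, and that of Slc7a1 to Slc7a5 was -0.010 to 0.36. The cause was not tested. Depth limits Trib3, Chac1 and Slc7a5, with 0 to 12, 2 to 32 and 4 to 341 reads a library.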

Other observations

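Gdf15, a secreted stress cytokine gene listed among the known ATF4 targets, was too low for the filter and has no limma test. It was 0.372, 0.274 and 0.376 FPKM in WT1, WT2 and WT4 and listed at 0 in WT3, and 1.02, 1.15, 0.709 and 2.21 FPKM in KO1 to KO4. The listed values did not overlap between the groups, but KO3 rests on 2 reads, and in WT3 3 reads would give 0.989 FPKM, above the level of KO3. It was singled out after its values were seen.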
